A study of Mus musculus with 227 samples.

Results

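The genes described here encode the machinery of glycolysis and the transcriptional response to low oxygen, 34 genes out of 24388 measured. The rule names each gene and uses no measured value, though earlier results of these data were known when it was written, and all 34 were found in the expression table. The set holds the glucose transporter gene Slc2a1, 16 genes for enzymes from hexokinase to lactate dehydrogenase, genes for lactate export and pyruvate handling, the hypoxia-inducible factors with their oxygen sensors, and genes known as targets of those factors. The measurements come from long bones of BL6 mice taken at postnatal day 3, whose cells were sorted into 4 skeletal populations and sequenced singly. No genotype or treatment other than the strain is named, so the populations differ by surface antigens. The 6C3+ gate was CD45-Ter-119-AlphaV+Thy-6C3+CD105+. The THY+ gate was Thy+6C3-CD105+, the CSP gate Thy-6C3-CD105+ and the mSSC gate Thy-6C3-CD105-CD200+, each also negative for CD45, Ter119 and Tie2 and positive for AlphaV. The series describes them together as stem, progenitor and stromal cells of the skeleton. The comparisons ask how far the glycolytic and hypoxia programme sets 6C3+, THY+ and CSP cells apart from mSSC, and 6C3+ from THY+ cells.

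Glycolysis splits glucose into pyruvate in the cytosol, and lactate dehydrogenase then turns pyruvate into lactate where mitochondrial oxidation is not used. HIF-1α and HIF-2α, encoded by Hif1a and Epas1, are marked for destruction by prolyl hydroxylases (Egln1, Egln3) when oxygen is plentiful. In low oxygen they accumulate as proteins and bind DNA at the core letters ACGTG or GCGTG near genes for glucose uptake, glycolysis, blood vessel growth and mitophagy. The growth plate of long bones has no blood vessels, and in mice HIF-1α is needed for chondrocytes at its centre to survive. Since HIF-1α is regulated mainly as a protein, the level of Hif1a mRNA does not report its activity.

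Detection of a gene means an FPKM value (sequenced fragments of a transcript divided by its length and by the fragments mapped in that cell) of at least 1 in that cell. The main set was the cells with at least 1000 detected genes, which were 34 of 92 6C3+, 43 of 72 THY+, 11 of 26 CSP and all 37 mSSC cells. In that set the median number of detected genes per cell was 2639 in 6C3+, 2835 in THY+, 3033 in CSP and 2534 in mSSC cells. Summed over all mouse genes, the FPKM of a cell had a median of 366748 in 6C3+, 752613 in THY+, 578425 in CSP and 906237 in mSSC cells. ERCC spike-ins held a median part of all FPKM of 18.9% in 6C3+ and 20.8% in THY+ cells, but 0.000945% in CSP and 0.00117% in mSSC cells. Each difference below is therefore given both as deposited and with the mouse genes of each cell rescaled to a total of 1000000. With 1 cell per library and no animal named, a population is 1 sample here, its differences have no replicate check, and no test was possible. CSP and mSSC cells shared an index plate, while 6C3+ and THY+ cells each had their own, so in comparisons with those the index plate and the population cannot be told apart. Fewer cells with a transcript and less transcript per cell enter a mean together, which is why counts of cells stand beside the levels.

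Most of the widely detected members listed below were genes for glycolytic enzymes. Other enzyme genes were detected in fewer cells, and Pfkm reached at most 18.2% of cells in any population (CSP). Of the 10 members grouped as hypoxia targets, apart from the enzymes, only Bnip3 and Mif averaged at least 50% of cells. Members were detected in a median of 27.9% of 6C3+, 30.2% of THY+, 40.9% of CSP and 31.1% of mSSC cells. The genes averaging at least 50% of cells over the populations were 12 members: Gpi1, Aldoa, Tpi1, Gapdh, Pgk1, Pgam1, Eno1, Pkm, Ldha, Hif1a, Bnip3 and Mif. Over all genes, 1537 reached that level. In CSP cells 5 of these were detected in all 11 cells, namely Tpi1, Gapdh, Eno1, Pkm and Mif, where 11 of 11 allows a true share as low as 71.5% by the exact Clopper-Pearson 95% interval. All such intervals, given below in parentheses after a share, cover counting error between cells only. At the other end, Egln3, Adm, Ddit4 and Ankrd37 were detected in too few cells for a comparison. Adm, which encodes the vasodilator peptide adrenomedullin, was detected in 1 of 34 6C3+ and 1 of 43 THY+ cells and in no CSP or mSSC cell. Ddit4, whose product restrains mTORC1, was detected in 4 of 34 6C3+, 3 of 43 THY+, 1 of 11 CSP and 4 of 37 mSSC cells. Egln3 reached 8.35 FPKM at most in 6C3+ and 9.78 FPKM in THY+ cells, but 301 FPKM in 1 CSP cell and 677 FPKM in 1 of 2 mSSC cells that held it. Ankrd37 was detected in 1 of 34 6C3+, 5 of 43 THY+, 1 of 11 CSP and 1 of 37 mSSC cells, and opposite-strand exons of Lrp2bp overlap 22.7% of its exon bases.

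**Figure D1:**
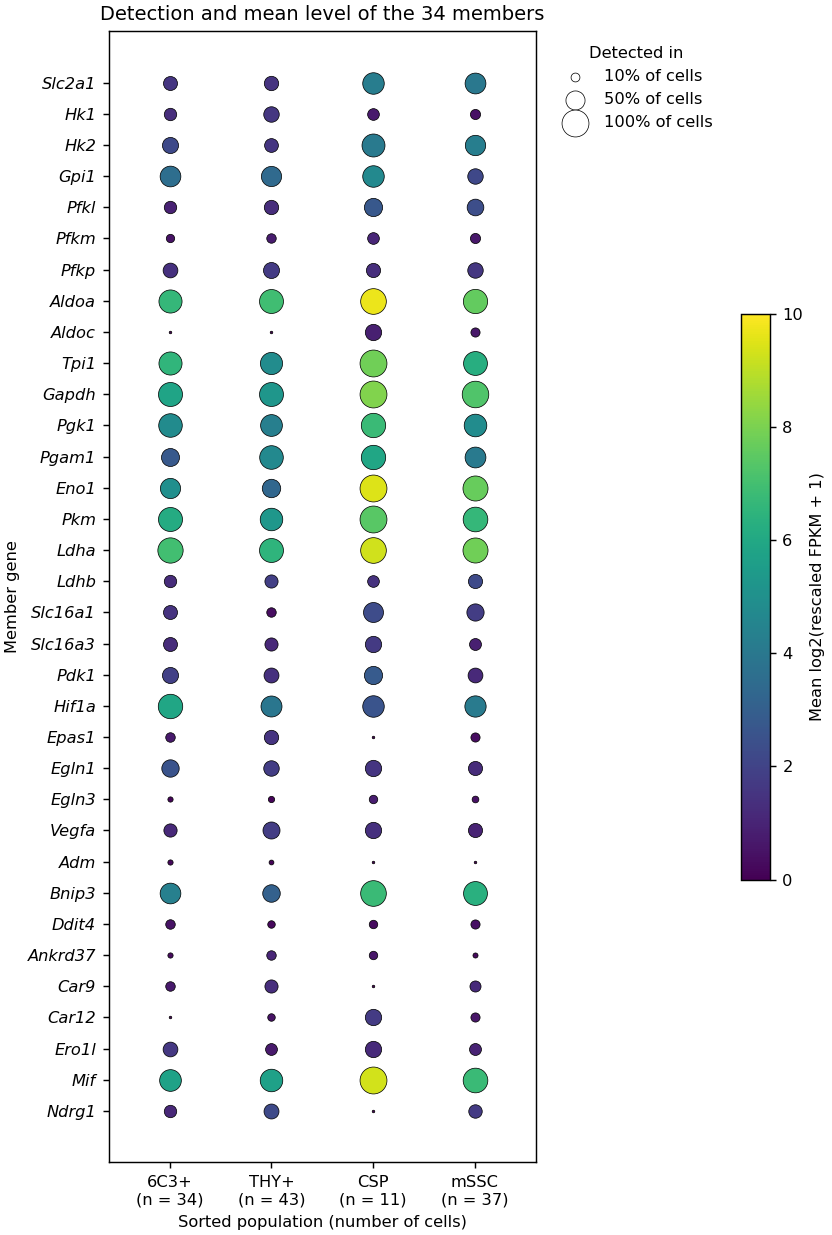
Each circle is a member gene in a sorted population of the main set; its area grows with the percentage of cells with the gene at 1 FPKM or more (the smallest dot is 0%), and its colour is the mean over cells of log2(rescaled FPKM + 1). The enzymes from aldolase to lactate dehydrogenase, except Aldoc and Ldhb, fill the CSP and mSSC columns, as do Bnip3 and Mif. Most other hypoxia genes are small and dark in every column.

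Promoters of 4 members are shown to illustrate the core letters of the HIF binding element at genes for glucose uptake, trapping, mitophagy and lactate production. They were picked after their values were seen, and Ldha for its number of matches; Eno1, whose difference was wider, held 1 or 2 matches in each of its windows. The windows are the 250 bases before the annotated start, from RefSeq on GRCm38.p6 (mm10), written along the gene's strand with each ACGTG or GCGTG in capitals, read on either strand (CACGT and CACGC are the reverse reading). Slc2a1 lies on the plus strand at chr4:119108495-119108744, Hk2 on the minus strand at chr6:82774455-82774704, Bnip3 on the minus strand at chr7:138909507-138909756 and Ldha on the plus strand at chr7:46845554-46845803.
Slc2a1: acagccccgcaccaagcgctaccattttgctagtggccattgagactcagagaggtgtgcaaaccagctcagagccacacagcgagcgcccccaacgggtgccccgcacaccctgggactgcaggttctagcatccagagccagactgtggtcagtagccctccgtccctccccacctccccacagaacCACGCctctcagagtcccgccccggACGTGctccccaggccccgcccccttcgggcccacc
Hk2: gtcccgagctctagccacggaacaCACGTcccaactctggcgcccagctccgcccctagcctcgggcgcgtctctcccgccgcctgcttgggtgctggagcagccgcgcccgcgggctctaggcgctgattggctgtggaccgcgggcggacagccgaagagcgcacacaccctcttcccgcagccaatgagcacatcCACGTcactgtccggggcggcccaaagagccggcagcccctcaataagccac
Bnip3: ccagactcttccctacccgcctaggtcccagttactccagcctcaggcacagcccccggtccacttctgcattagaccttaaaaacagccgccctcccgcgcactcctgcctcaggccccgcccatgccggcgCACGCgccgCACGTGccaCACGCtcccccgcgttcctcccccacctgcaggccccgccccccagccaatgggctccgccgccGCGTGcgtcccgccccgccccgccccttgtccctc
Ldha: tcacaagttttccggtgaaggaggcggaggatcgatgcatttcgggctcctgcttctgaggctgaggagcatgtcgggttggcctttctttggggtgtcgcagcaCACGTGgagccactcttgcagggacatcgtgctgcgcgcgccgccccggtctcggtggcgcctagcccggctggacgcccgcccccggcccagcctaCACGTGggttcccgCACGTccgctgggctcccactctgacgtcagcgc
Slc2a1 and Hk2 each held 2 matches and Bnip3 and Ldha 5 each, where the palindrome CACGTG counts as a match on each strand. Another Ldha window, at chr7:46846832-46847081, held 1 match and is not shown. Over the set, 28 of the 32 members with a window held at least 1 match in any window (87.5%), against 11226 of 27025 genes (41.5%). Some genes have several windows. Counted by window, 35 of 45 member windows held a match (77.8%), against 12679 of all 32851 windows (38.6%). Gpi1, Tpi1, Mif and Car12 held none in this window. Epas1 and Ndrg1 were not matched. A match is a run of letters and not a shown binding site, and neither methylation nor binding was measured.

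Summed over the 16 enzyme genes, glycolysis took a larger part of the transcriptome in CSP and mSSC cells than in 6C3+ and THY+ cells. The enzyme share of mouse FPKM in 6C3+ cells ran from 0.0289% to 0.905% with a median of 0.235%. THY+ cells ran from 0.000639% to 0.920% with a median of 0.217%. CSP cells ran from 0.307% to 1.36% with a median of 0.560%, and mSSC cells from 0.00193% to 1.31% with a median of 0.424%. The populations overlapped: the lowest CSP cell lay above the median of 6C3+ and of THY+ cells, but mSSC cells spanned nearly the whole range of both. The share is taken of mouse FPKM, without the spike-ins. Within populations its Spearman correlation with the spike-in percentage was -0.32 in 6C3+, -0.43 in THY+, 0.36 in CSP and -0.42 in mSSC cells (n = 34, 43, 11 and 37), and the part of the spike-in level in the share was not tested. With each cell rescaled, the 5 leading enzymes made up 79.6% of the enzyme sum in 6C3+, 73.8% in THY+, 82.1% in CSP and 74.8% in mSSC cells. Aldoa, the muscle-type aldolase that most tissues use, led the sum in 6C3+ (26%) and THY+ cells (28.7%), and Ldha led it in CSP (29.5%) and mSSC cells (22.8%).

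**Figure D2:**
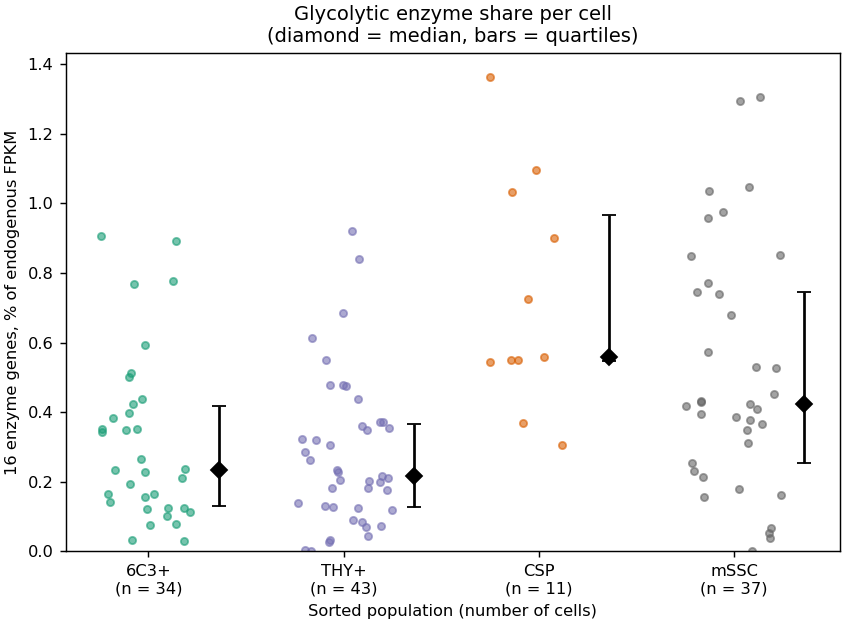
The vertical axis gives the summed FPKM of the 16 enzyme genes as a percentage of all mouse FPKM in a cell; each point is 1 cell of the main set, the diamond is the median of the population and the bars its quartiles. Medians were 0.235% in 6C3+, 0.217% in THY+, 0.560% in CSP and 0.424% in mSSC cells, with wide overlap.

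In THY+ and in 6C3+ cells the genes for glucose uptake, glucose trapping and mitophagy (Slc2a1, Hk2, Bnip3) were lower than in mSSC cells by more than 2 on the log2 scale under both scalings. Among the enzymes, Eno1 read alone had the widest difference. Summed with its copy Eno1b, it differed by -1.48 rescaled in 6C3+ minus mSSC, against -2.05 for Hk2. The enzyme genes Gapdh and Pfkl, and the cytokine gene Mif, were also lower in each comparison. Of the 30 members in enough cells to compare, 11 were lower and 2 higher in THY+ than in mSSC cells by at least 1 under both scalings, where 9.23% of the 7867 genes compared were lower and 10.6% higher. In 6C3+ cells 9 members were lower and 0 higher than in mSSC under both scalings, where 6.61% of genes were lower and 4.89% higher. As deposited, the THY+ counts were the same 11 and 2 (10.6% of genes lower, 10.7% higher), while 13 members were lower in 6C3+ than in mSSC cells (14.8% of genes), and after rescaling 3 were higher (16.1% of genes). Both comparisons use the same mSSC cells and so are not independent. Among widely detected genes, the median difference over the 12 members was -1.38 as deposited and -1.21 rescaled in THY+ minus mSSC, against -0.40 and -0.20 over all 1537. In 6C3+ minus mSSC it was -1.93 and -0.90 over the 12 members, against -0.87 and 0.13 over all 1537, so rescaling alone shifts the median gene by 1.0. Among widely detected genes under both scalings, 7 of the 12 members were lower and 1 higher in THY+ than in mSSC cells, where 26.7% of genes were lower and 12.6% higher. In 6C3+ minus mSSC 5 of the 12 were lower and 0 higher, where 15.7% were lower and 5.4% higher. Over all 30 members the median was -0.48 as deposited and -0.34 rescaled in THY+ minus mSSC, against 0.10 and 0.20 over all 7867 genes. In 6C3+ minus mSSC it was -0.67 and -0.53 over the 30 members, against -0.13 and 0.24 over all 7867.

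Slc2a1 encodes GLUT1, the constitutive glucose transporter. It was detected in 9 of 34 6C3+ cells (26.5%, 12.9 to 44.4), 12 of 43 THY+ cells (27.9%, 15.3 to 43.7), 7 of 11 CSP cells (63.6%, 30.8 to 89.1) and 22 of 37 mSSC cells (59.5%, 42.1 to 75.2). It ranged from 0 to 74.6 FPKM with a median of 0 in 6C3+ cells, from 0 to 326 with a median of 0 in THY+ cells, from 0 to 599 with a median of 18.9 in CSP cells and from 0 to 1873 with a median of 8.56 in mSSC cells. The populations overlapped at 0, and the highest value was in an mSSC cell as deposited but in a THY+ cell after rescaling, with maxima of 3180 in THY+, 1234 in CSP and 918 in mSSC cells. Its difference of mean log2(FPKM + 1) was -2.77 as deposited and -2.46 rescaled in 6C3+ minus mSSC, and -2.74 and -2.49 in THY+ minus mSSC. Hk2 encodes hexokinase 2, the inducible enzyme that traps glucose as its phosphate. It was detected in 12 of 34 6C3+, 11 of 43 THY+, 8 of 11 CSP and 21 of 37 mSSC cells. Hk2 ranged from 0 to 640 FPKM with a median of 0 in 6C3+ cells, from 0 to 1073 with a median of 0 in THY+ cells, from 0 to 523 with a median of 5.12 in CSP cells and from 0 to 2385 with a median of 17.6 in mSSC cells. Cells without Hk2 were found in every population, and in 6C3+ cells that held it the median was only 3.99 FPKM, against 229 FPKM in such mSSC cells. The Hk2 difference was -2.63 as deposited and -2.05 rescaled in 6C3+ minus mSSC, and -2.83 and -2.68 in THY+ minus mSSC.

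Of the phosphofructokinase genes, which encode the committed step, only the liver-type Pfkl passed 1 against mSSC. Pfkl was detected in 7 of 34 6C3+, 12 of 43 THY+, 5 of 11 CSP and 14 of 37 mSSC cells, and differed by -1.68 as deposited and -1.45 rescaled in 6C3+ minus mSSC and by -1.20 and -1.10 in THY+ minus mSSC. Pfkm (muscle type) and Pfkp (platelet type) passed 1 in no comparison under either scaling. Whether Pfkl differs from Pfkm and Pfkp in its change was not tested.

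Eno1, the main enolase gene (chr4:150236721-150248879), was detected in 19 of 34 6C3+ cells (55.9%, 37.9 to 72.8), 20 of 43 THY+ cells (46.5%, 31.2 to 62.3), 11 of 11 CSP cells (100%, 71.5 to 100) and 32 of 37 mSSC cells (86.5%, 71.2 to 95.5). Eno1 values ran from 0 to 1105 FPKM with a median of 42.1 in 6C3+ cells, from 0 to 871 with a median of 0.0143 in THY+ cells, from 47.8 to 3305 with a median of 399 in CSP cells and from 0 to 5291 with a median of 402 in mSSC cells. Every CSP cell and most mSSC cells were high. Where Eno1 was detected, its median was 152.6 FPKM in 6C3+, 103.4 FPKM in THY+, 399 FPKM in CSP and 575 FPKM in mSSC cells, so THY+ and 6C3+ cells were lower in both detection and level. Its level is uncertain, because 70.5% of the 50-base stretches of its transcript also occur in Eno1b, a retrogene listed as its own row. Every cell with Eno1 detected also had Eno1b, and Eno1b alone was detected in 11 of 34 6C3+, 15 of 43 THY+, 0 of 11 CSP and 3 of 37 mSSC cells. The difference was -3.43 as deposited and -2.74 rescaled in 6C3+ minus mSSC and -4.26 and -4.35 in THY+ minus mSSC for Eno1 alone. With both rows summed it was -2.83 and -1.48 in 6C3+ minus mSSC and -3.10 and -2.83 in THY+ minus mSSC. Gapdh, which encodes the enzyme that oxidises glyceraldehyde phosphate, ranged from 0 to 389 FPKM with a median of 36.5 in 6C3+ cells, from 0 to 892 with a median of 57.6 in THY+ cells, from 72.4 to 540 with a median of 154.2 in CSP cells and from 0 to 912 with a median of 155.3 in mSSC cells. It was the least variable of the 12 widely detected members among CSP cells, with a mean log2 level of 7.32 ± 0.92 (SD between cells, n = 11). The Gapdh difference was -2.50 as deposited and -1.41 rescaled in 6C3+ minus mSSC and -2.11 and -1.98 in THY+ minus mSSC. Its pseudogene row Gm12070 shares 65.9% of its 50-base stretches and the unlisted Gm7336 82.5%, and the summed rows gave -2.55 and -1.41 in 6C3+ minus mSSC and -2.18 and -2.04 in THY+ minus mSSC.

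Bnip3, a mitophagy receptor and a classical HIF target, was detected in 20 of 34 6C3+ cells (58.8%, 40.7 to 75.4), 18 of 43 THY+ cells (41.9%, 27 to 57.9), 10 of 11 CSP cells (90.9%, 58.7 to 99.8) and 29 of 37 mSSC cells (78.4%, 61.8 to 90.2). Bnip3 values ran from 0 to 471 FPKM with a median of 9.44 in 6C3+ cells, from 0 to 1586 with a median of 0 in THY+ cells, from 0 to 1539 with a median of 271.4 in CSP cells and from 0 to 5470 with a median of 191 in mSSC cells. CSP and mSSC cells were high, yet each population had cells at 0. The Bnip3 difference was -2.95 as deposited and -2.01 rescaled in 6C3+ minus mSSC and -3.19 and -3.27 in THY+ minus mSSC. Pseudogenes not listed in the table share up to 17.9% of its 50-base stretches.

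Ldha, which makes lactate from pyruvate, was detected in 30 of 34 6C3+, 34 of 43 THY+, 10 of 11 CSP and 32 of 37 mSSC cells, so most of its difference was in level. Ldha values ran from 0 to 846 FPKM with a median of 48.6 in 6C3+ cells, from 0 to 6082 with a median of 152.5 in THY+ cells, from 0 to 7038 with a median of 1231 in CSP cells and from 0 to 15611 with a median of 463 in mSSC cells. Its difference passed 1 in THY+ minus mSSC (-1.63 as deposited, -1.33 rescaled), while in 6C3+ minus mSSC -2.08 as deposited became -0.85 rescaled. Pkm, the pyruvate kinase gene, gave -1.61 and -1.38 in THY+ minus mSSC and -1.79 and -0.55 in 6C3+ minus mSSC. Tpi1, the triose phosphate isomerase gene, gave -1.61 and -1.43 in THY+ minus mSSC but -0.68 and 0.29 in 6C3+ minus mSSC, where the sign depended on the scaling. Mif, a cytokine gene induced by hypoxia, was detected in 22 of 34 6C3+, 30 of 43 THY+, 11 of 11 CSP and 31 of 37 mSSC cells, and differed by -1.92 and -1.0 in 6C3+ minus mSSC and -1.14 and -1.10 in THY+ minus mSSC. For Mif in THY+ minus mSSC the log2 of the mean FPKM gave 0.11 in place of the mean of logs.

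**Figure D3:**
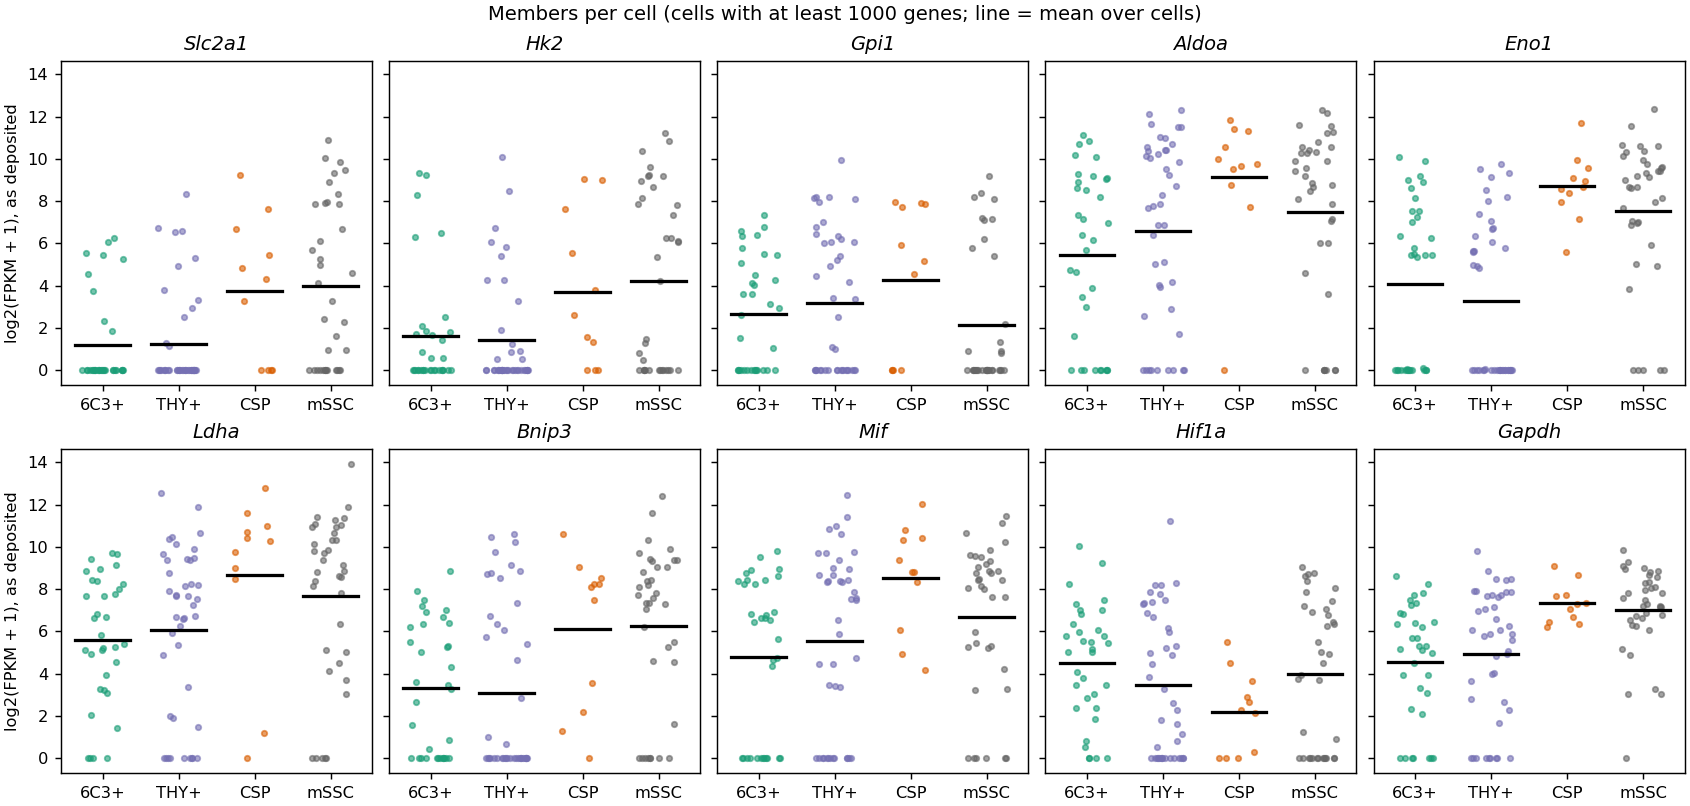
The vertical axis is log2(FPKM + 1) as deposited; each point is 1 cell of the main set and the black line is the mean over cells, with the populations 6C3+, THY+, CSP and mSSC from left to right in each panel. Slc2a1, Hk2, Eno1 and Bnip3 have many THY+ and 6C3+ cells at 0, while Eno1 and Gapdh are above 0 in every CSP cell.

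Against this pattern, Gpi1 and Epas1 were higher in THY+ than in mSSC cells, though Epas1 was in enough cells to compare only through THY+ cells. Gpi1 encodes glucose phosphate isomerase, the step after hexokinase, and was detected in 20 of 34 6C3+ cells (58.8%, 40.7 to 75.4), 24 of 43 THY+ cells (55.8%, 39.9 to 70.9), 7 of 11 CSP cells (63.6%, 30.8 to 89.1) and 12 of 37 mSSC cells (32.4%, 18 to 49.8). Gpi1 values ran from 0 to 163.7 FPKM with a median of 5.85 in 6C3+ cells, from 0 to 977 with a median of 4.8 in THY+ cells, from 0 to 244.97 with a median of 34.7 in CSP cells and from 0 to 588 with a median of 0 in mSSC cells. Its difference from mSSC was 0.53 as deposited and 1.42 rescaled in 6C3+ cells, 1.06 and 1.26 in THY+ cells, and 2.14 and 2.53 in CSP cells. Of the 12 widely detected members it had the lowest share of mSSC cells. Hk1, the constitutive hexokinase gene, differed in THY+ minus mSSC by 0.82 as deposited and 1.11 rescaled.

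Chondrocyte transcripts differed in the same comparisons. All 7 chondrocyte markers (Sox9, Col2a1, Acan, Col9a1, Col11a1, Matn1, Comp) were lower by at least 1 in 6C3+ and in THY+ than in mSSC cells under both scalings. Their summed share of mouse FPKM ran from 0.000669% to 9.92% (median 1.15%) in 6C3+, from 0% to 7.35% (median 0.0963%) in THY+, from 0.0906% to 26.8% (median 4.60%) in CSP and from 0.00297% to 9.18% (median 3.59%) in mSSC cells. Matn1 was detected in no 6C3+ cell. Fibroblast markers mostly differed the other way. Of 5, 4 (Col1a1, Col3a1, Postn, Pdgfra) were higher in 6C3+ and in THY+ than in mSSC cells under both scalings. Dcn was lower in THY+ than in mSSC cells under both scalings, with a median of 0 FPKM in THY+ and 1059 FPKM in mSSC cells. In 6C3+ cells, with a median of 217 FPKM, Dcn was lower than in mSSC cells as deposited only. The summed share of the 5 markers ran from 0.0972% to 10.2% (median 1.71%) in 6C3+, from 0.00278% to 14.7% (median 1.5025%) in THY+ and from 0.000193% to 6.67% (median 0.266%) in mSSC cells. Of 5 pericyte and smooth muscle markers compared, 4 were higher in THY+ than in mSSC cells (Rgs5, Pdgfrb, Acta2, Mcam) and Cspg4 was lower, and their sum ran from 0% to 3.03% (median 0.0280%) in THY+ and from 0% to 2.23% (median 0.00733%) in mSSC cells. Rgs5, Acta2 and Mcam were in enough cells to compare only through THY+ cells. Genes induced by tissue dissociation were lower than in mSSC cells for 5 of 9 in 6C3+ and 4 of 9 in THY+ cells, with Junb, Atf3 and Ier2 lower in each; their sum had a median of 0.712% in 6C3+, 0.551% in THY+ and 0.810% in mSSC cells. Spike-ins and the plate differed in the same comparisons as well, and the part of any of these in the results was not tested. Of the other cell types a bone digest could hold, Ptprc and Pecam1 were detected in no cell of the main set. The endothelial, myeloid and erythroid sums were each at most 0.0247% of a cell's FPKM. The skeletal muscle sum reached 0.0991% in CSP, 0.0839% in THY+, 0.0308% in mSSC and 0.00585% in 6C3+ cells. Acta1 was detected in 6 of 34 6C3+, 17 of 43 THY+, 5 of 11 CSP and 19 of 37 mSSC cells. Of 3 muscle markers compared, Des was higher in THY+ and Tnnt3 in CSP than in mSSC cells under both scalings. Des was in enough cells to compare only through THY+ cells, and Tnnt3 only through CSP cells. The part of muscle transcripts in the results was not tested.

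**Figure D4:**
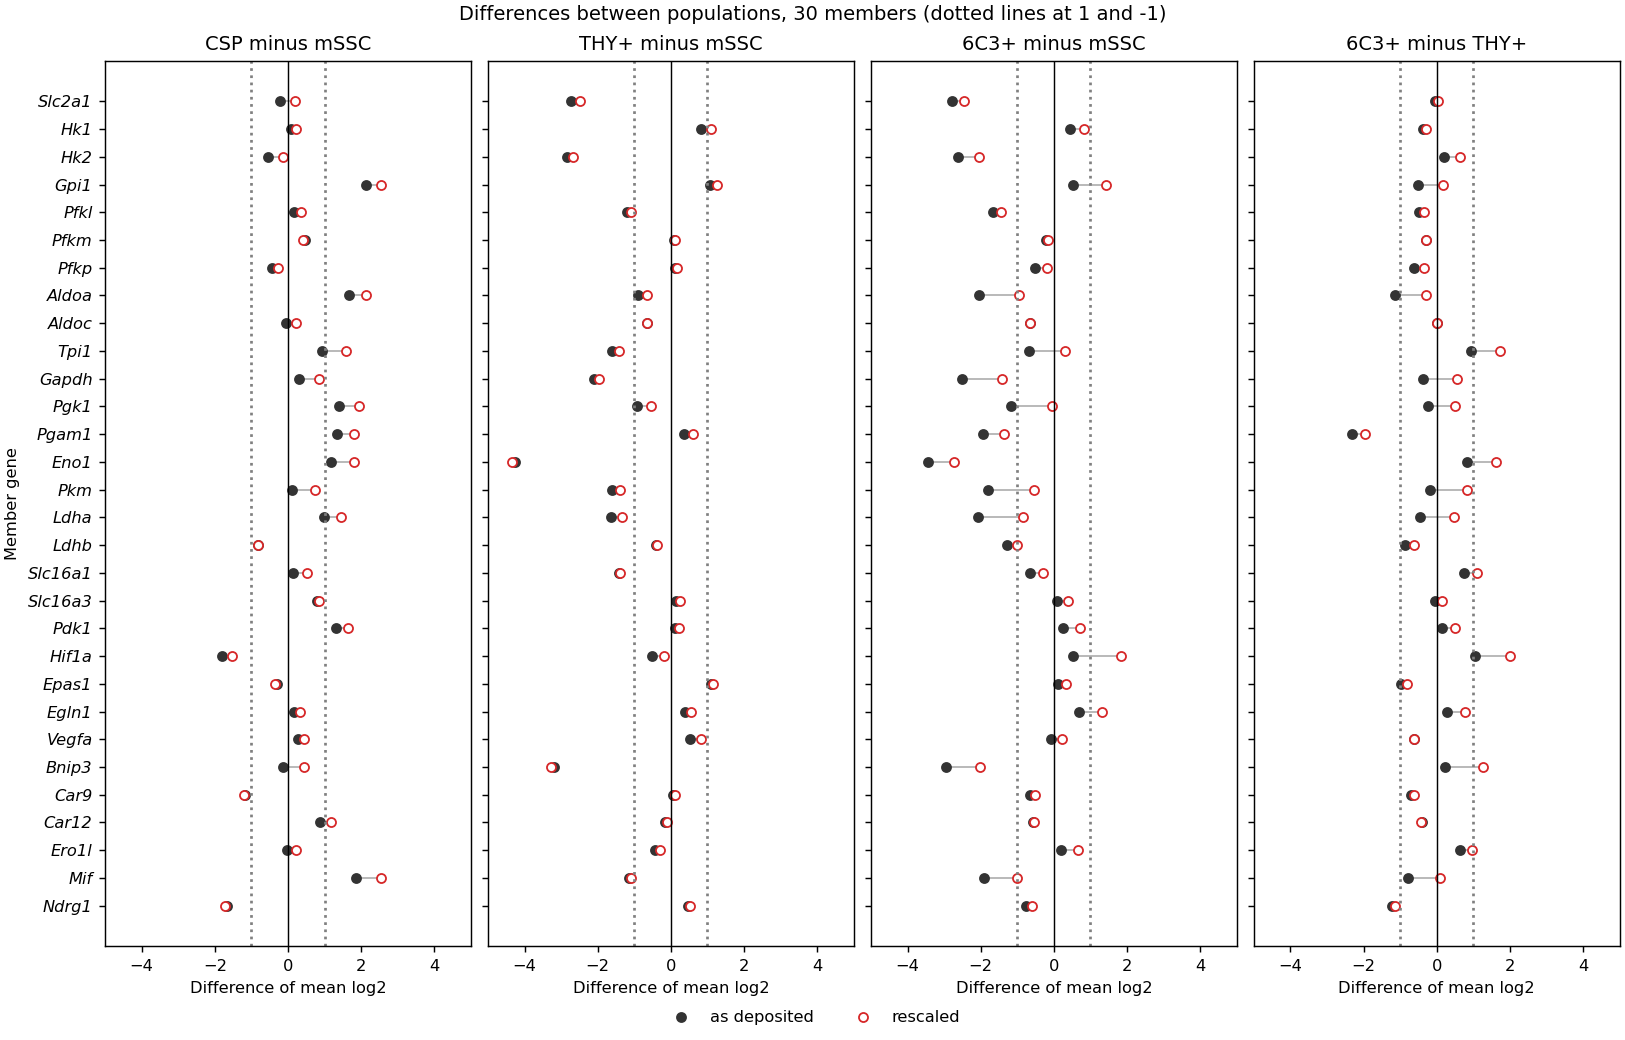
Each row is 1 of the 30 members compared and each panel 1 comparison; the horizontal axis is the difference of mean log2(FPKM + 1), filled circles as deposited and open circles after rescaling each cell to the same total. In both panels against mSSC for THY+ and 6C3+, Slc2a1, Hk2, Eno1 and Bnip3 lie left of -2, and in CSP minus mSSC Gpi1, Aldoa and Mif lie right of 1.

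In CSP cells 5 of the 16 enzyme genes were higher than in mSSC cells and 0 lower. Under both scalings 7 members were higher by at least 1 (Gpi1, Aldoa, Pgk1, Pgam1, Eno1, Pdk1 and Mif), where 15.7% of the 7867 genes compared were higher. Under both scalings 3 were lower (Hif1a, Car9 and Ndrg1), where 8.33% of genes were lower. As deposited the same 7 and 3 members passed, where 15.7% of genes were higher and 10.5% lower. Of the 12 widely detected members 6 were higher and 1 lower under both scalings, where 20.1% of such genes were higher and 14.1% lower. The median over the 12 widely detected members was 1.07 as deposited and 1.68 rescaled, against -0.05 and 0.30 over all 1537 widely detected genes. Over all 30 members it was 0.16 as deposited and 0.44 rescaled, against 0.05 and 0.19 over all 7867. These populations share a plate and a spike-in level near 0.

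Aldoa in CSP cells ranged from 0 to 3703 FPKM with a median of 873, against 0 to 5048 FPKM with a median of 456 in mSSC cells. It was found in 10 of 11 CSP cells and in 30 of 37 mSSC cells, and the ranges overlapped from end to end. Its difference was 1.67 as deposited and 2.13 rescaled. The CSP values of several enzymes carry the same doubt about copies as Eno1: pseudogenes not listed in the table share up to 67.9% of the 50-base stretches of Pgk1, 41.6% of Mif and 41.5% of Pgam1. Pgk1, for the first step that makes ATP, was found in 9 of 11 CSP cells and 26 of 37 mSSC cells and differed by 1.40 and 1.95. Pgam1, for phosphoglycerate mutase, was found in 9 of 11 CSP cells and in 22 of 37 mSSC cells and differed by 1.34 and 1.81. Mif in CSP cells ranged from 17.1 to 4130 FPKM with a median of 453, against 0 to 2806 FPKM with a median of 282.5 in mSSC cells. No CSP cell lacked Mif, while 6 of 37 mSSC cells were under 1 FPKM, and the difference was 1.85 and 2.55. Eno1 differed by 1.17 and 1.79 alone and by 0.62 and 1.23 with Eno1b summed. Pdk1, whose kinase holds pyruvate back from the mitochondria, was found in 5 of 11 CSP cells and in 11 of 37 mSSC cells and differed by 1.31 and 1.65. Among the other enzymes, Tpi1 differed by 0.93 and 1.57 and Ldha by 0.97 and 1.44, past 1 only when rescaled. Gapdh differed by 0.29 and 0.85 and Pkm by 0.10 and 0.73, past 1 under neither scaling. Slc2a1 and Hk2 differed by -0.22 and -0.55 as deposited and by 0.20 and -0.15 rescaled, with overlapping intervals of detection.

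The direction in CSP minus mSSC rests on which cells are used and on how they are averaged. Over all 26 CSP cells, of which 15 had under 1000 genes, 0 members were higher than in mSSC and 18 were lower, where 0.44% of the 5912 genes compared were higher and 44.3% lower. In the main set the log2 of the mean FPKM gave 2 members higher and 13 lower, where 13.5% of genes were higher and 42.9% lower. Other markers differed in the same comparison. All 4 hypertrophic markers (Col10a1, Ihh, Panx3, Mef2c) were higher by at least 1, with a summed share from 0% to 1.75% (median 0.176%) in CSP and from 0% to 0.215% (median 1.92e-05%) in mSSC cells. Ihh, which encodes Indian hedgehog, was found in 9 of 11 CSP cells and in 2 of 37 mSSC cells. Of 7 osteoblast markers 4 were in enough cells to compare and 3 were higher in CSP cells (Runx2, Sp7, Alpl), with a summed share from 0% to 0.330% (median 0.0168%) in CSP and from 0% to 0.677% (median 0%) in mSSC cells. Col10a1, Ihh, Panx3, Sp7 and Alpl were in enough cells to compare only through CSP cells. The filter thus favoured finding these markers higher in CSP cells, and their counts are descriptions only. Lower in CSP cells were 3 of 5 fibroblast markers (Col1a1, Col3a1, Postn) and 3 of 6 proliferation markers (Top2a, Cdk1, Birc5), and none of the last 3 was detected in a CSP cell. Their part in the result was not tested.

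Between the 6C3+ and THY+ populations few members differed. Under both scalings Hif1a was higher in 6C3+ than in THY+ cells, where 2.03% of the genes compared were higher, and Pgam1 and Ndrg1 were lower, where 5.28% were lower. As deposited Aldoa was lower as well, where 11.1% of genes were lower. Of the 12 widely detected members 1 was higher and 1 lower under both scalings, where 4.75% of such genes were higher and 5.73% lower. Pgam1 was detected in 15 of 34 6C3+ cells (44.1%, 27.2 to 62.1) and 33 of 43 THY+ cells (76.7%, 61.4 to 88.2). It ranged from 0 to 136.5 FPKM with a median of 0 in 6C3+ cells and from 0 to 1190 with a median of 35.3 in THY+ cells, and differed by -2.31 as deposited and -1.96 rescaled. High values were in THY+ cells, while both populations had cells at 0. Ndrg1, a stress-induced gene, was detected in 7 of 34 6C3+ and 13 of 43 THY+ cells and differed by -1.23 and -1.13. Rescaling moved Tpi1, Eno1, Bnip3 and Slc16a1 past 1 as higher in 6C3+, at 1.72, 1.62, 1.26 and 1.11, where 9.55% of genes were higher. The median over the 12 widely detected members was -0.31 as deposited and 0.54 rescaled, against -0.48 and 0.41 over all 1537.

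Of the genes for the factors and their sensor, Hif1a passed 1 under both scalings in 6C3+ minus THY+ and CSP minus mSSC, Epas1 in THY+ minus mSSC, and Egln1 in no comparison. Hif1a was detected in 28 of 34 6C3+ cells (82.4%, 65.5 to 93.2), 26 of 43 THY+ cells (60.5%, 44.4 to 75), 7 of 11 CSP cells (63.6%, 30.8 to 89.1) and 23 of 37 mSSC cells (62.2%, 44.8 to 77.5). It ranged from 0 to 1063 FPKM with a median of 33.7 in 6C3+ cells, from 0 to 2434 with a median of 5.06 in THY+ cells, from 0 to 44.1 with a median of 3.83 in CSP cells and from 0 to 523 with a median of 21.8 in mSSC cells. No CSP cell was above 44.1 FPKM, or above 192 after rescaling, and the populations overlapped. The difference was 1.04 as deposited and 2.01 rescaled in 6C3+ minus THY+, -1.81 and -1.52 in CSP minus mSSC, -0.51 and -0.19 in THY+ minus mSSC, and 0.53 and 1.82 in 6C3+ minus mSSC. Epas1 was detected in 4 of 34 6C3+, 12 of 43 THY+, 0 of 11 CSP and 4 of 37 mSSC cells, and the exact interval allows a share of up to 28.5% at 0 of 11. It was higher in THY+ than in mSSC cells by 1.10 and 1.15. Egln1, which encodes the main oxygen-sensing hydroxylase, was detected in 14 of 34 6C3+, 14 of 43 THY+, 4 of 11 CSP and 10 of 37 mSSC cells and passed 1 in 6C3+ minus mSSC after rescaling only (0.68 and 1.33).

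Among the other hypoxia targets, Vegfa, the gene for the main vessel growth factor, was detected in 8 of 34 6C3+, 17 of 43 THY+, 4 of 11 CSP and 10 of 37 mSSC cells, reached 64 FPKM at most as deposited, and passed 1 in no comparison as deposited or rescaled. Car9, a HIF target that encodes a cell surface carbonic anhydrase, was detected in 4 of 34 6C3+, 10 of 43 THY+ and 6 of 37 mSSC cells and was listed at 0 in all 11 CSP cells. Ndrg1 was also listed at 0 in all 11 CSP cells and was detected in 9 of 37 mSSC cells. At 11 cells the exact interval reaches 28.5%, above the mSSC shares of 16.2% for Car9 and 24.3% for Ndrg1, so neither difference in detection could be shown at this number of cells. Ero1l, an oxidase gene of the endoplasmic reticulum, was detected in 10 of 34 6C3+, 8 of 43 THY+, 4 of 11 CSP and 7 of 37 mSSC cells and passed 1 in no comparison.

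Genes for alternative forms of the same step were found both together and apart. Hk1 and Hk2 were detected together in 5 of 34 6C3+, 4 of 43 THY+, 2 of 11 CSP and 3 of 37 mSSC cells. Hk2 without Hk1 was detected in 7 of 34 6C3+, 7 of 43 THY+, 6 of 11 CSP and 18 of 37 mSSC cells. Hk1 without Hk2 was detected in 2 of 34 6C3+, 10 of 43 THY+, 0 of 11 CSP and 2 of 37 mSSC cells. As a part of summed hexokinase FPKM after rescaling, Hk1 made up 14.6% in 6C3+, 32.9% in THY+, 2.58% in CSP and 1.12% in mSSC cells. Of the lactate carrier genes, Slc16a1 (MCT1) without Slc16a3 (MCT4) was found in 5 of 34 6C3+, 3 of 43 THY+, 3 of 11 CSP and 10 of 37 mSSC cells. Slc16a3 without Slc16a1 was found in 5 of 34 6C3+, 8 of 43 THY+, 1 of 11 CSP and 2 of 37 mSSC cells. Both carriers were found in 4 of 34 6C3+, 2 of 43 THY+, 3 of 11 CSP and 5 of 37 mSSC cells. In THY+ cells Slc16a1 made up only 4.62% of the summed rescaled FPKM of this pair, against 80.2% in mSSC cells. The highest rescaled value in a THY+ cell was 622 for Slc16a3 and 17.7 for Slc16a1, so this share rests on few cells. Slc16a1 differed by -1.41 under both scalings in THY+ minus mSSC. Slc16a3 passed 1 in no comparison.

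Aldoc, the brain-type aldolase gene, was detected in 0 of 34 6C3+ cells (up to 10.3%), 0 of 43 THY+ cells (up to 8.22%), 4 of 11 CSP cells (36.4%, 10.9 to 69.2) and 4 of 37 mSSC cells (10.8%, 3.03 to 25.4). Aldoa made up at least 97.4% of summed aldolase FPKM after rescaling in each population. The carbonic anhydrase genes Car9 and Car12 were detected together in 1 cell, an mSSC cell. Car12 was detected in 0 of 34 6C3+, 3 of 43 THY+, 4 of 11 CSP and 4 of 37 mSSC cells, so CSP cells held Car12 and no Car9. Ldhb, for the lactate dehydrogenase form of heart muscle, was detected in 7 of 34 6C3+, 10 of 43 THY+, 2 of 11 CSP and 10 of 37 mSSC cells. Of these cells 6, 8, 2 and 9 also held Ldha. Ldhb differed by -1.27 as deposited and -1.0 rescaled in 6C3+ minus mSSC. Ldha made up from 79.3% of the summed pair in mSSC to 98.1% in CSP cells, in rescaled values.

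**Figure D5:**
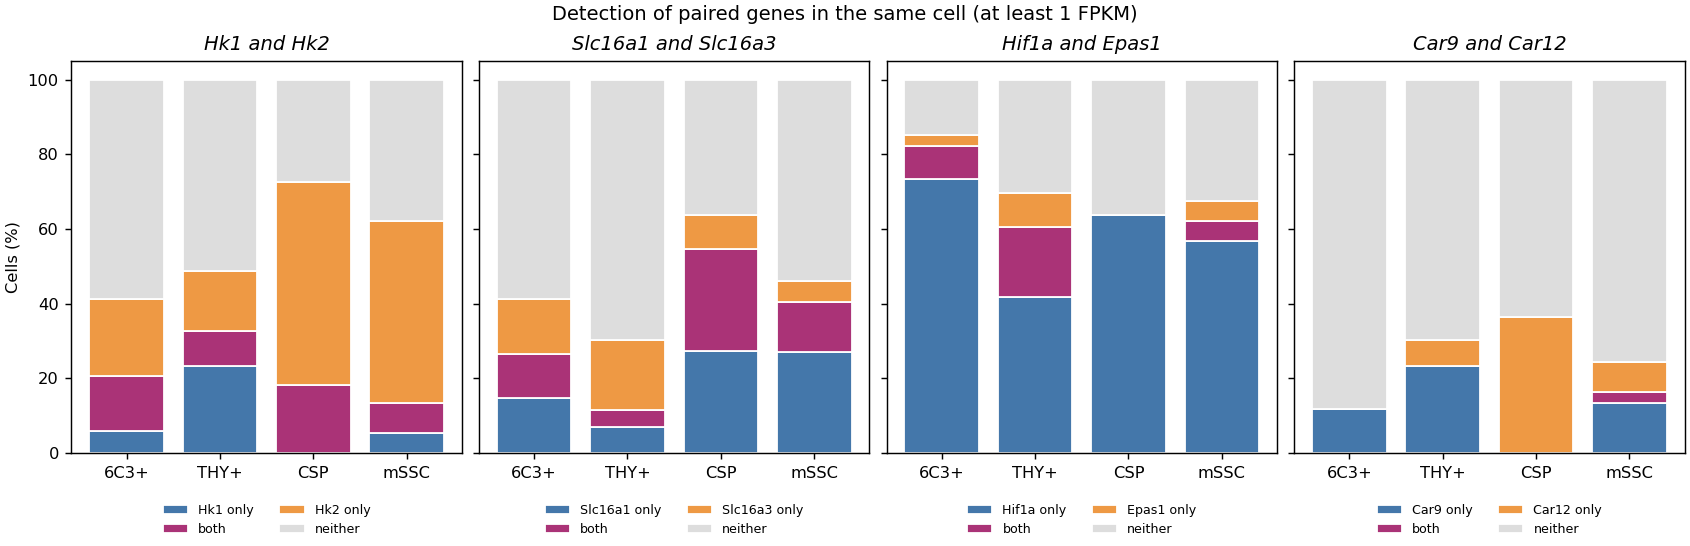
Bars give the percentage of main-set cells with only the first gene, both genes, only the second gene or neither detected at 1 FPKM or more, for 6C3+, THY+, CSP and mSSC cells from left to right. Hk1 without Hk2 is largest in THY+ cells (10 of 43), Hif1a is far more common than Epas1 in each population, and CSP cells show Car12 (4 of 11) but no Car9.

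Few single cells showed the whole pathway. With any member gene of an enzyme counted for its step and enolase read from Eno1 alone, all 11 steps from hexokinase to lactate dehydrogenase were detected in 3 of 34 6C3+ cells (8.82%, 1.86 to 23.7), 8 of 43 THY+ cells (18.6%, 8.39 to 33.4), 4 of 11 CSP cells (36.4%, 10.9 to 69.2) and 3 of 37 mSSC cells (8.11%, 1.70 to 21.9). The median was 8 steps in 6C3+, 7 in THY+, 10 in CSP and 8 in mSSC cells. The step least often detected was hexokinase (14 of 34) together with phosphofructokinase (14 of 34) in 6C3+ cells, enolase (20 of 43) in THY+ cells and isomerase (12 of 37) in mSSC cells. With Eno1b also counted, an alternative added after seeing the data, enolase was found in 35 of 43 THY+ cells and hexokinase (21 of 43) became the least detected step there, while all 11 steps were found in 4 of 34 6C3+, 8 of 43 THY+, 4 of 11 CSP and 3 of 37 mSSC cells. A transcript listed at 0 in 1 cell is not shown to be absent from it.

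Within populations the enzymes went weakly together. Over the 36 pairs of 9 widely detected enzymes, the median Spearman correlation between cells was 0.24 in 6C3+ (n = 34), 0.38 in THY+ (n = 43), 0.16 in CSP (n = 11) and 0.22 in mSSC cells (n = 37). The enzyme share correlated with Mif at 0.42 in 6C3+, 0.58 in THY+, 0.59 in CSP and 0.34 in mSSC cells, and with Bnip3 at 0.39 in 6C3+, 0.44 in THY+, 0.56 in CSP and 0.41 in mSSC cells. With Hif1a it was 0.24 in 6C3+, 0.21 in THY+, -0.25 in CSP and 0.07 in mSSC cells. Values in a cell share its library and total, and the share correlated with the number of detected genes at 0.41 in 6C3+, 0.43 in THY+, 0.24 in CSP and 0.15 in mSSC cells, and with the spike-in percentage as given above, so these values are descriptions only.

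Other genes of the same pathways were read from lists of 31 further glycolysis and 37 further hypoxia response genes, of which 12 and 25 were in enough cells to compare. In THY+ minus mSSC 1 of the 12 glycolysis genes was lower (8.33%) and 0 higher under both scalings. In 6C3+ minus mSSC 1 was also lower (8.33%) and 0 higher. These shares were near those over all genes compared. In THY+ minus mSSC 9.23% of all genes were lower and 10.6% higher, and in 6C3+ minus mSSC 6.61% and 4.89%. In each comparison the lower glycolysis gene was Bsg, which encodes basigin, the chaperone of the lactate carriers. Bsg had a median of 32 FPKM in 6C3+, 25.9 FPKM in THY+ and 424 FPKM in mSSC cells, and differed by -2.64 as deposited and -1.8 rescaled in 6C3+ minus mSSC and -2.62 and -2.55 in THY+ minus mSSC. Of the 25 hypoxia genes, 4 were lower (16%) and 2 higher (8%) in THY+ minus mSSC, where 9.23% of all genes compared were lower and 10.6% higher. In 6C3+ minus mSSC 2 were lower (8%) and 0 higher, where 6.61% of all genes were lower and 4.89% higher. P4ha1, for a collagen prolyl hydroxylase, differed by -2.25 and -1.06 in 6C3+ minus mSSC and -2.08 and -1.92 in THY+ minus mSSC. Bhlhe40, a transcriptional repressor gene, differed by -2.56 and -2.15 in THY+ minus mSSC and -1.54 and -0.76 in 6C3+ minus mSSC, where Bhlhe41 differed by -1.27 and -0.82. Loxl2, for a collagen crosslinking oxidase, was higher in THY+ than in mSSC cells by 1.39 and 1.74, and differed by -1.72 and -1.51 in 6C3+ minus THY+.

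In CSP minus mSSC 4 of the 12 further glycolysis genes were higher and 0 lower, and 7 of the 25 hypoxia genes were higher and 1 lower, where 15.7% of all genes were higher and 8.33% lower. Pgm2, which encodes a phosphoglucomutase, was found in 8 of 11 CSP cells and in 12 of 37 mSSC cells and differed by 1.8 and 2.06. Pdhb, for a pyruvate dehydrogenase subunit, was found in 7 of 11 CSP cells and in 14 of 37 mSSC cells and differed by 1.69 and 1.96. P4ha2 had a median of 362 FPKM in CSP and 55.9 FPKM in mSSC cells, and Fam162a 253.8 FPKM in CSP and 49.7 FPKM in mSSC cells, with differences of 1.66 and 2.29 for P4ha2 and 1.67 and 2.29 for Fam162a. In 6C3+ minus THY+ 0 of the 12 glycolysis genes passed 1 under both scalings. Of the 25 hypoxia genes 1 was higher (4%) and 2 were lower (8%). Over all genes compared, 2.03% were higher and 5.28% lower. Plin2, for a lipid droplet coat protein, was detected in 2 of 34 6C3+ and 13 of 43 THY+ cells and differed by -1.40 and -1.39. Mpc1, for a mitochondrial pyruvate carrier subunit, and Pgm2 passed -1 as deposited only, at -1.31 and -1.03, against -0.65 and -0.95 rescaled.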

How the data were processed

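Single cells were captured on the Fluidigm C1 platform with ERCC spike-ins added, amplified with SMARTer reagents and made into Nextera XT libraries, per the labels' protocols. The authors deposited 1 table of FPKM for 24388 genes and 92 spike-ins. Per the submitters' processing notes, mm10 and SAMtools were used; which aligner, FPKM program and annotation were used is not given in the sources used here. Such values keep no read counts, so depth in reads is unknown.

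Columns of the table were assigned to cells through the index names in their titles, and 0 were left over. The values compared were means over cells of log2(FPKM + 1), in the main set of cells with at least 1000 genes. A difference of at least 1 counted as higher or lower, and the pseudocount understates the difference of low genes. Genes detected in at least 10% of cells, averaged over the populations, were compared, so a gene could pass through the 1 population where it was common. No p-value was computed. The direction of large planted differences in widely detected genes was checked on simulated cells. That check did not cover the threshold of 1, genes detected in fewer cells, or the spike-in and plate differences of these data. Members and lists were chosen with earlier results of these data known. All 34 members are described, and of the other pathway genes the 4 with the largest absolute difference per comparison are named, among those detected in at least 25% of cells of the higher population; other genes are markers or copies. Copies were found as shared 50-base stretches of GENCODE vM21 transcripts. Alternatives were pseudocounts of 0.1 and 10, rescaling, all cells or cells with at least 2000 genes, the log2 of the mean, a threshold of 2, no filter on low values, detection above 0 or at 10, the enzyme share without Gapdh or as a mean, and leaving out the first index row or cells with at least 2 endothelial, myeloid, erythroid or skeletal muscle markers. Summing Eno1 and Gapdh with their copies, leaving out the first row with rescaling, and counting Eno1b as enolase were added after seeing the data. The scripts ran on Python 3.11.15 with scipy 1.17.1, numpy 2.4.6, matplotlib 3.10.9 and pandas 2.3.3.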

Additional observations from a re-analysis of the deposited data

How the results depend on the processing

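The members lower in THY+ than in mSSC stayed within 1.5 times the main count of 11 under every alternative except the threshold of 2, which left 5. Counts of members are given as deposited, and the cause of each move was not tested. For most alternatives no share over all genes stands beside these counts, so they do not show a shift of the members apart from other genes. In CSP minus mSSC, 44.3% of all genes compared were lower over all cells and 42.9% with the log2 of the mean. In CSP minus mSSC the main 7 higher and 3 lower became 11 higher with a pseudocount of 0.1, 4 higher and 1 lower with 10, 0 and 18 over all cells, 2 and 13 with the log2 of the mean, 1 and 0 at a threshold of 2, 4 and 7 without cells holding at least 2 markers of other types, and 12 higher when rescaled over cells with at least 2000 genes. In THY+ minus mSSC the main 2 higher became 4 with a pseudocount of 0.1, 1 without cells holding other markers, and 0 with a pseudocount of 10, over all cells or at a threshold of 2. In 6C3+ minus mSSC the main 0 higher and 13 lower became 3 higher with a pseudocount of 0.1, 3 higher rescaled (also with copies summed), 4 higher and 7 lower rescaled over cells with at least 2000 genes, 3 and 8 rescaled without the first row, 20 lower with the log2 of the mean and 7 lower at a threshold of 2. In 6C3+ minus THY+ the main 1 higher and 3 lower became 5 and 6 with a pseudocount of 0.1, 0 and 1 with 10 or at a threshold of 2, 5 higher rescaled (also with copies summed), 6 higher rescaled over cells with at least 2000 genes, 0 and 5 over cells with at least 2000 genes, 0 and 7 over all cells, 2 and 17 with the log2 of the mean, 2 and 1 without cells holding other markers, 3 higher without the first row and 9 higher with rescaling as well.

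Signs turned mainly with all cells. In CSP minus mSSC all cells gave -0.32 for Gpi1, -3.53 for Aldoa, -2.17 for Pgk1, -1.74 for Pgam1, -3.84 for Eno1, -0.096 for Pdk1 and -2.83 for Mif, and the log2 of the mean gave -0.072 for Pgam1 and -0.035 for Eno1. Hif1a in 6C3+ minus THY+ was -0.41 over all cells and -0.25 with the log2 of the mean, and Mif in THY+ minus mSSC was 0.11 with the log2 of the mean. Aldoa in 6C3+ minus THY+ was 0.59 rescaled without the first row, and Pgk1 in 6C3+ minus mSSC 0.11 rescaled over cells with at least 2000 genes. Over all cells the median enzyme share was 0.0675% in 6C3+ and 0.131% in CSP cells. The median share of 6C3+ cells with a member was 14.7% for detection at 10 FPKM and 12% over all cells. No paired analysis was possible because each population is 1 sample and replicate numbers only name cells. With 11 CSP cells in the main set, shares in that population are known least well, and the unknown read depth limits what a value of 0 means.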

Other observations

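In the cells left out of the main set for having under 1000 genes, Vegfa was the member found in the most 6C3+ and THY+ cells, although it is not among the 12 widely detected members. Vegfa was detected in 15 of 58 such 6C3+ cells (25.9%, 15.3 to 39) and in 9 of 29 such THY+ cells (31%, 15.3 to 50.8). These shares were near those of the main set, where 8 of 34 6C3+ cells (23.5%, 10.7 to 41.2) and 17 of 43 THY+ cells (39.5%, 25 to 55.6) held it. The enzyme genes differed more between the sets: among cells under 1000 genes Pkm was detected in 12 of 58 6C3+ and 6 of 29 THY+ cells, and Ldha in 6 of 58 6C3+ and 8 of 29 THY+ cells. The median over the 34 members was 1.72% of such 6C3+ and 3.45% of such THY+ cells. In the 15 such CSP cells Pkm led with 4 cells (26.7%, 7.79 to 55.1), and 18 of the 34 members were detected in none. Malat1, a nuclear noncoding RNA, was detected in 55 of 58 such 6C3+, 28 of 29 THY+ and 15 of 15 CSP cells. Vegfa was singled out after its values were seen, and whether these are intact cells was not tested.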
